A study of Mus musculus with 28 samples.

Results

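A set of 10 genes that move salt, calcium and magnesium across the distal convoluted tubule, or that regulate this transport, were followed in mouse kidneys that carried 1 of 3 forms of aquaporin-3 (Aqp3). They were Slc12a3, Wnk1, Wnk4, Stk39, Klhl3, Trpv5, Calb1, Slc8a1, Trpm6 and Pvalb. Rows of the deposited count table were matched to these symbols through their Ensembl identifiers. All 10 were found among 56748 genes, and all 10 were among the 17573 genes with enough counts to test. The kidneys came from female and male mice whose Aqp3 was an acetylation mimetic (Q), a deacetylation mimetic (R) or wild type (WT). The groups were female Q (5 libraries), female R (3), female WT (5), male Q (5), male R (5) and male WT (5). All mice were untreated, fed freely under a standard light cycle and killed 2 to 5 h after lights on, and the kidneys were stripped of the capsule and frozen. The strain, the age and the way the alleles were made are not given in the sources used here. Polyadenylated RNA was sequenced, and total counts per library lay between 14825417 and 21403804. The labels number the libraries of a group and do not state separate animals, so p-values measure the spread between libraries, which may in part be technical.

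The distal convoluted tubule is a short nephron segment that lies after the thick ascending limb. Its sodium chloride cotransporter NCC (Slc12a3), the target of thiazide diuretics, is switched on by a kinase chain in which WNK kinases (Wnk1, Wnk4) activate SPAK (Stk39), while the ubiquitin ligase adaptor KLHL3 (Klhl3) marks WNK kinases for degradation. The late part of the segment and the connecting tubule take up calcium through the apical channel TRPV5, carry it on the binding protein calbindin-D28k (Calb1) and release it through the basolateral sodium-calcium exchanger NCX1 (Slc8a1). Magnesium enters through the apical channel TRPM6, and parvalbumin (Pvalb) is a calcium-binding protein of the early part of the segment. The edited gene, Aqp3, acts elsewhere, as a basolateral water and glycerol channel of the collecting duct.

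The genes differed between the sexes and not detectably between the Aqp3 genotypes. Averaged over the 3 genotypes, 8 of the 10 were higher in female than in male kidneys and 0 were lower, by 1.26- to 1.49-fold, while 21.3% of all tested genes were higher in females and 18.9% lower. The channel Trpv5 and the exchanger Slc8a1 had the largest estimates, and Wnk4 the smallest. Between Aqp3 genotypes, 0 of the 10 passed the test in any of the 9 comparisons.

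In all, 3 libraries stood apart. The mitochondrial genome gave 3.94% of counts in female Q replicate 5 and 7.74% in male Q replicate 4, while its share was 9.56 to 12.1% in the remaining 26 libraries. Female WT replicate 2 had 0.514 CPM (counts relative to a library size scaled by the TMM method) of Xist, the RNA that coats the inactive X chromosome, whereas the 12 remaining female libraries had 214 to 434 CPM. It also lacked the Y-linked signal of the males, with 0.468 CPM against 120 to 164 CPM in male libraries. Calls of members that change without these libraries are given beside the results. Aqp3 itself averaged 111 ± 11.1 CPM in female Q and 118 ± 15.7 in female WT (SD, n = 5 each). The edited codon cannot be read from gene counts, and genotypes were not checked.

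The start regions of genes that carry the sex difference are shown to let their letters be read beside it. RefSeq windows on GRCm38.p6, from 250 bases before to 50 after the annotated start, were matched for 9 of the 10 genes. Windows of 5 are printed 5′ to 3′ along the gene, with capitals for TATAAA on either strand, the core of a TATA box, and for GCCNNNGGC, a core letter pattern of TFAP2 factors that reads the same on both strands. Slc12a3 holds both patterns, Trpv5 and Trpm6 hold 1 each, and Slc8a1 and Klhl3, the members with the smallest adjusted p between the sexes, hold neither. The windows lie at chr8:94328958-94329257 (plus strand) for Slc12a3, chr6:41680674-41680973 (minus strand) for Trpv5, chr19:18749480-18749779 (plus strand) for Trpm6, chr17:81738338-81738637 (minus strand) for Slc8a1 and chr13:58113598-58113897 (minus strand) for Klhl3.
Slc12a3: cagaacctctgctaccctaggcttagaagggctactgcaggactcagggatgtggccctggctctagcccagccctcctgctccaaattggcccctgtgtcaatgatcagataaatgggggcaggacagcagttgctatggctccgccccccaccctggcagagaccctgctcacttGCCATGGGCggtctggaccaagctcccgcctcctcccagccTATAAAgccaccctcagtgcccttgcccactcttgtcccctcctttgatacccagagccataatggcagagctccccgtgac
Trpv5: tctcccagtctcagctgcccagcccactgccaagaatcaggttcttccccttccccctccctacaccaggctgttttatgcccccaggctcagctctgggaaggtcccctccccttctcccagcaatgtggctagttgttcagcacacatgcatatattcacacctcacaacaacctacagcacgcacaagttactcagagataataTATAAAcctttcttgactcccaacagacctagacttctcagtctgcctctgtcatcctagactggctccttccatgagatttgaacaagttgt
Trpm6: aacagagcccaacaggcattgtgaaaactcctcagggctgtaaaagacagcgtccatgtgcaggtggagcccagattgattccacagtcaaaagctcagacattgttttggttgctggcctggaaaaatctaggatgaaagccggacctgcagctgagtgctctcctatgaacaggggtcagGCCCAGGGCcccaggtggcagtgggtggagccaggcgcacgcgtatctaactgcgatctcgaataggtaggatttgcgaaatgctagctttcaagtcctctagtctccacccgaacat
Slc8a1: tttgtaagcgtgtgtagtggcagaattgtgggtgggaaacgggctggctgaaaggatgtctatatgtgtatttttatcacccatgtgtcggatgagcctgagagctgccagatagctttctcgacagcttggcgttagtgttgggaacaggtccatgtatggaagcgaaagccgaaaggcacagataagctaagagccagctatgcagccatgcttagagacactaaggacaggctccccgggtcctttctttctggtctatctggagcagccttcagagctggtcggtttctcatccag
Klhl3: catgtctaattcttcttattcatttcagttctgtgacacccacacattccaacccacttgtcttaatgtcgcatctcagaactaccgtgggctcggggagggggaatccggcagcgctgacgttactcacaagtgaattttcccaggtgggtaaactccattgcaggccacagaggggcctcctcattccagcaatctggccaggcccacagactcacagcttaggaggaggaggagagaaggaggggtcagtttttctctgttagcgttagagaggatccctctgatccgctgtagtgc

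TATAAA began 32 bases before the start of Slc12a3 and 43 bases before that of Trpv5. These were 2 of the 9 genes, while 13.6% of all 32851 windows held the letters on either strand. Among windows with at least 50% G and C the share was 5.88%. GCCNNNGGC was found in 6 of the 9 genes, namely Slc12a3, Trpm6, Pvalb, Wnk1, Wnk4 and Stk39, against 16.6% of all windows and 24.5% of windows with at least 50% G and C. Windows with GCCNNNGGC had 53.0 to 80.0% G and C, and those of Trpv5, Slc8a1 and Klhl3, without it, 50.7 to 52.3%. None of these shares of windows is matched to this composition. Genes are also counted here beside shares of windows, and Pvalb has 2 windows. Whether the pattern is more frequent in the members was not tested. The patterns did not overlap each other in these windows. The palindrome bound by androgen, glucocorticoid, mineralocorticoid and progesterone receptors, AGAACA followed after 3 bases by its reverse complement, was in 0 of the 9 genes and in 0.00913% of all windows. Its first arm alone, AGAACA on either strand, was in 1 of the 9 genes, Pvalb, against 19% of all windows. The share was 13.2% in windows with at least 50% G and C. A match of letters is not a binding site, and more distant elements were not read.

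The members were expressed at very different levels. Per kilobase of exon (the union of a gene's exons in GENCODE release 21), Calb1 was the highest at 106 CPM per kb averaged over the 6 groups, followed by Slc12a3 at 74.7 CPM per kb. Pvalb had 36.8 and Wnk4 34.2 CPM per kb, and these neighbours were not separated, since Pvalb was above Wnk4 in 14 of 28 libraries. Wnk1 had 12.6, Stk39 9.65 and Klhl3 7.75 CPM per kb. Slc8a1, at 5.47, and the channels Trpv5, at 4.37, and Trpm6, at 2.03 CPM per kb, were the lowest. Each other neighbour in this order was above the next in at least 25 of 28 libraries. The exon union counts exons that a kidney transcript may not use, so the order is one per annotated length. Wnk1 counts pool the full-length kinase with the short kidney-specific form that lacks the kinase domain, which gene counts cannot part. The lowest count of a member in a library was 67, for Trpv5. Within groups the coefficient of variation was lowest for Stk39, at 11.3%, and highest for Pvalb, at 34.3%.

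**Figure D1:**
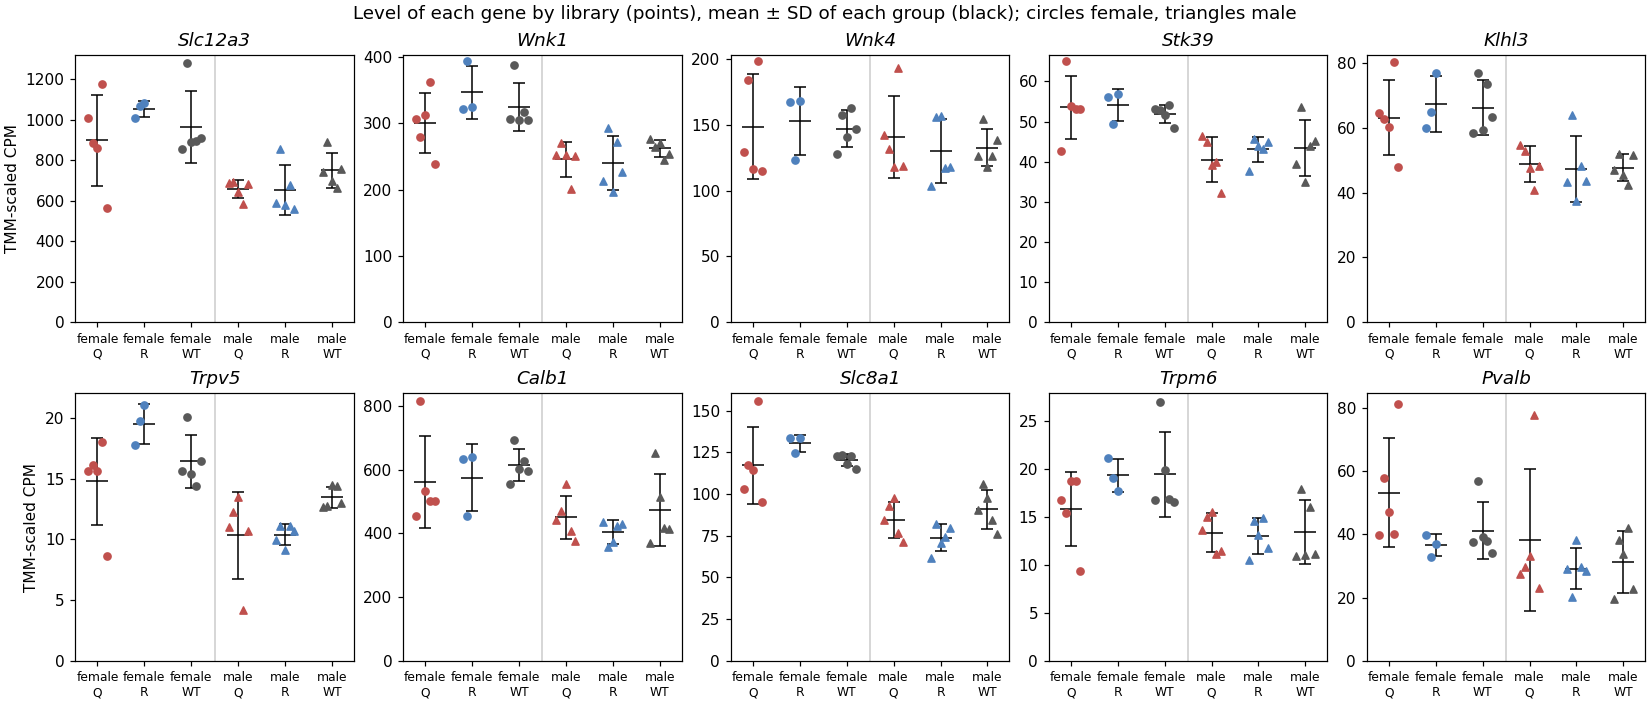
TMM-scaled CPM (y axes, from 0) of each of the 10 genes in every library, by group (x axes), with circles for females, triangles for males and black bars for the mean ± SD of a group. Female libraries lie higher for most genes, as for Slc8a1 with 95.4 to 156 CPM in females and 61.5 to 106 CPM in males, while the 3 genotypes of a sex lie at similar heights.

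The cotransporter Slc12a3 was higher in female kidneys. It had 1011, 885, 859, 1178 and 565 CPM in female Q, 1009, 1069 and 1084 CPM in female R, and 855, 1283, 893, 893 and 909 CPM in female WT. In males it had 688, 695, 643, 584 and 682 CPM in Q, 587, 857, 578, 678 and 561 CPM in R, and 742, 893, 698, 666 and 759.8 CPM in WT. Of the 13 female libraries 9 lay above every male library, and female Q replicate 5, with the low mitochondrial share, was lower than 14 of the 15 males. The log2 fold change of females over males was 0.45 in Q (SE 0.144, edgeR adjusted p = 0.0217), 0.69 in R (SE 0.163, adjusted p = 0.00339) and 0.36 in WT (SE 0.144, adjusted p = 0.0828). Averaged over the genotypes it was 0.50 (SE 0.0871, edgeR adjusted p = 2.45e-05), or 1.42-fold. In WT the estimate was 0.23 without female WT replicate 2, which had the highest Slc12a3 level of all libraries.

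Of the kinases above the cotransporter, Wnk1 and Stk39 rose with female sex and Wnk4 did not pass. Wnk1 ran from 239 through a median of 312 to 393 CPM in the 13 female libraries, against 197, 253 and 293 CPM in the 15 males. Of the female libraries 11 were above every male, and the mean log2 fold change was 0.38 (SE 0.0683, edgeR adjusted p = 4.8e-05). Stk39, the SPAK kinase that phosphorylates the cotransporter, ran from 42.7 through 53.2 to 65.0 CPM in females and from 32.3 through 44.0 to 53.8 CPM in males. Its mean log2 fold change was 0.33 (SE 0.0659, edgeR adjusted p = 0.000149), and the ranges of the sexes overlapped. Wnk4 ran from 115 through 147 to 198 CPM in females, against 103, 126 and 193 CPM in males. Its estimate was 0.15 (95% interval -0.04 to 0.34, edgeR adjusted p = 0.199), and its call depended on the setting. Wnk4 passed in 3 of 36 alternative settings, among them without the 2 libraries of low mitochondrial share (0.22, edgeR adjusted p = 0.0406).

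Klhl3, the adaptor that removes WNK kinases, was higher in females in each genotype. It had 64.5, 62.9, 60.2, 80.4 and 47.9 CPM in female Q, 60.0, 65.0 and 76.8 CPM in female R, and 58.4, 76.8, 59.4, 73.6 and 63.2 CPM in female WT. In males it had 54.8, 52.8, 47.5, 40.8 and 48.4 CPM in Q, 43.4, 64.0, 37.3, 48.3 and 43.7 CPM in R, and 47.0, 51.9, 45.3, 42.3 and 51.7 CPM in WT. Female and male WT libraries did not overlap. In Q female replicate 5 lay below male replicates 1, 2 and 5, and in R male replicate 2 lay above female replicate 1. The log2 fold change was 0.37 in Q (edgeR adjusted p = 0.0346), 0.51 in R (adjusted p = 0.0168) and 0.48 in WT (adjusted p = 0.00879). Together with Slc8a1 it was 1 of the 2 members that passed in all 3 genotypes. Stk39 and Klhl3, which act on the cotransporter in opposite senses, were both higher in female RNA, and protein and phosphorylation were not measured.

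Of the calcium genes, the exchanger Slc8a1 gave the smallest adjusted p of the 10. It had 103, 117, 114, 156 and 95.4 CPM in female Q, 133, 125 and 133 CPM in female R, and 123, 124, 118, 123 and 115 CPM in female WT. In males it had 84.4, 92.6, 97.5, 76.6 and 71.2 CPM in Q, 61.5, 81.8, 70.7, 74.5 and 79.8 CPM in R, and 90.5, 106, 97.9, 84.2 and 76.0 CPM in WT. The sexes did not overlap in R or in WT, and in Q only female replicate 5, at 95.4 CPM, lay below the highest male. The log2 fold change was 0.47 in Q (edgeR adjusted p = 0.00206), 0.82 in R (adjusted p = 1.69e-05) and 0.41 in WT (adjusted p = 0.00979). The mean over the genotypes was 0.57 (SE 0.0672, edgeR adjusted p = 4.31e-08). Slc8a1 is also made outside this segment, and whole-kidney counts do not part its sources.

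The apical calcium channel Trpv5, which lets calcium into the cell, had 15.6, 16.1, 15.6, 18.1 and 8.66 CPM in female Q, 17.8, 19.7 and 21.1 CPM in female R, and 15.7, 20.1, 15.4, 14.4 and 16.5 CPM in female WT. In males it had 11, 12.2, 13.5, 4.16 and 10.7 CPM in Q, 9.96, 11.1, 9.11, 11.1 and 10.7 CPM in R, and 12.7, 12.8, 14.5, 14.4 and 13 CPM in WT. The lowest library of each sex, female Q replicate 5 and male Q replicate 4, was one of the 2 with a low mitochondrial share. The log2 fold change was 0.52 in Q (SE 0.188, edgeR adjusted p = 0.044), 0.91 in R (SE 0.211, adjusted p = 0.00283) and 0.29 in WT (SE 0.186, adjusted p = 0.325). Its mean was 0.57 (SE 0.113, edgeR adjusted p = 0.000133), and 0.52 without the 3 libraries that stood apart. Calbindin (Calb1) ran from 455 through a median of 595 to 817 CPM in females, against 358, 425 and 652 CPM in males. Its mean log2 fold change was 0.40 (SE 0.0897, edgeR adjusted p = 0.000556), and among single genotypes it passed in R alone (0.51, adjusted p = 0.0392).

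The magnesium channel Trpm6 ran from 9.38 through 17.7 to 27 CPM in females, against 10.5, 13.1 and 17.9 CPM in males. Of the 13 female libraries 6 were above every male, and the lowest library of all was again female Q replicate 5. The mean log2 fold change was 0.45 (SE 0.104, edgeR adjusted p = 0.000773). It passed in R (0.57, adjusted p = 0.046) and in WT (0.54, adjusted p = 0.0278), and the WT estimate was 0.38 without female WT replicate 2, where edgeR gave an adjusted p of 0.15.

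Parvalbumin varied most between libraries. It had 39.9, 57.9, 47.0, 40.1 and 81.4 CPM in female Q, 39.9, 32.8 and 37.1 CPM in female R, and 37.7, 56.9, 39.1, 37.9 and 34.0 CPM in female WT. In males it had 27.5, 29.6, 33.1, 77.9 and 23.2 CPM in Q, 29.2, 20.2, 38.4, 29.6 and 28.5 CPM in R, and 19.4, 38.2, 33.9, 42.1 and 22.7 CPM in WT. The highest library of each sex was the one with a low mitochondrial share, the opposite of the pattern in Trpv5. The mean log2 fold change was 0.40 (SE 0.167, edgeR adjusted p = 0.0567), and it was 0.47 with an adjusted p of 0.00322 without those 2 libraries. Leaving out single libraries, it passed in 6 of 28 fits, with 0.54 (edgeR adjusted p = 0.00234) without male Q replicate 4 and 0.33 (adjusted p = 0.107) without female Q replicate 5. In Q alone the estimate was 0.48 (edgeR adjusted p = 0.226), or 0.70 (adjusted p = 0.0215) without both. Fast skeletal muscle also makes parvalbumin. The 6 skeletal muscle markers summed to 19.8 to 46.9 CPM in females and 18.2 to 42.4 CPM in males. Of the 4 that could be tested 1 rose with female sex, Myh1, a fast muscle myosin, with 2.15 to 6.68 CPM in female libraries and 0 to 0.315 CPM in males (edgeR adjusted p = 1.66e-15). Acta1 (-0.12), Ckm (-0.08) and Mylpf (0.01) did not pass. The other fast muscle markers, Myh4 and Tnnt3, had at most 0.391 CPM in every library. The part of muscle RNA in the Pvalb level was not tested.

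**Figure D2:**
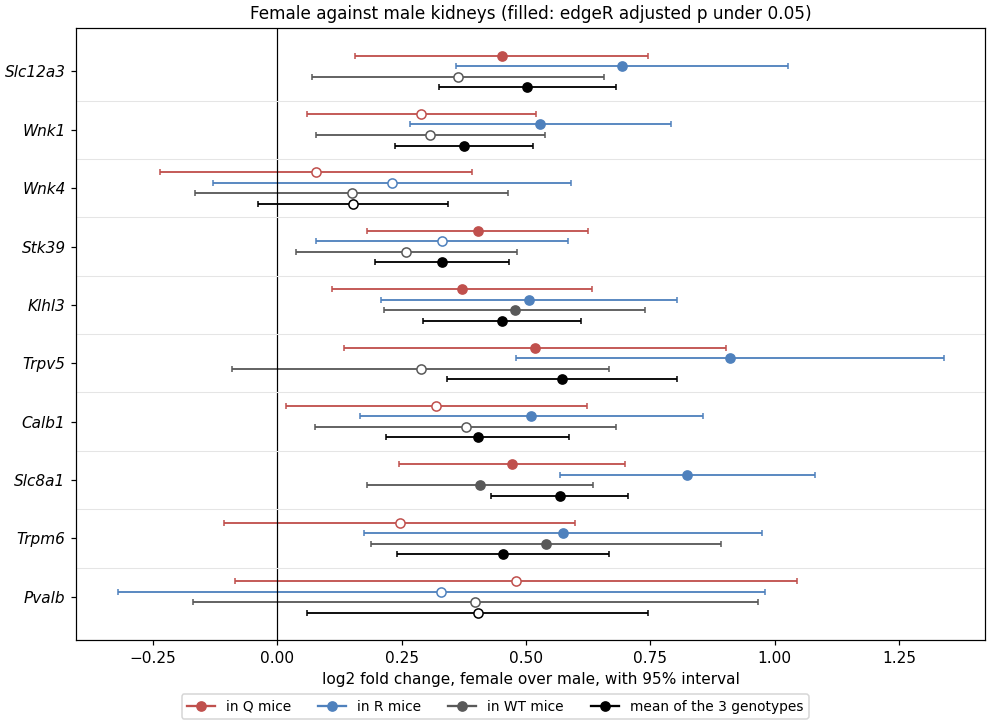
Log2 fold change of female over male kidneys (x axis) with its 95% interval for each of the 10 genes (y axis), in Q, R and WT mice and as the mean of the 3 genotypes, with filled points where the edgeR adjusted p was under 0.05. All estimates lie right of 0, from 0.08 for Wnk4 in Q to 0.91 for Trpv5 in R.

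Across all 10, the estimate was positive in each genotype, and the counts of calls were 5 in Q, 7 in R and 3 in WT. Sex moved much of the transcriptome, so these counts stand beside a large background. Of all tested genes 23.1% passed in Q (11.2% higher and 11.9% lower in females), 14.1% in R (7.01% higher and 7.07% lower) and 16.5% in WT (8.31% higher and 8.22% lower). Averaged over the genotypes 40.2% passed, 21.3% as higher and 18.9% as lower, beside 8 of 10 higher and 0 lower among the members. The median log2 fold change was 0.43 over the 10 members and 0.04 over all tested genes. Without overlap between the sexes, 0 members were higher in female Q (6.37% of all tested genes), 7 in female R (12.1%) and 3 in female WT (7.27%). Over all 13 female and 15 male libraries 0 members parted the sexes fully, against 1.94% of all genes as higher in females. The 20 tests of whether sex and genotype interacted, for Q and for R in the 10 members, gave 0 calls, so the counts of 5, 7 and 3 are not shown to differ between genotypes. All 8 calls of the mean held in each of the 28 fits that left out 1 library. Of the 15 calls in single genotypes 7 held in all 28 fits, those of Slc8a1 in Q, R and WT, Klhl3 in WT, Slc12a3 and Trpv5 in R and Stk39 in Q. That of Wnk1 in R was lost without female R replicate 2, that of Slc12a3 in Q without female Q replicate 1 or 4, and that of Klhl3 in R without male R replicate 3 or female R replicate 3. Those of Klhl3 in Q (22 fits), Calb1 in R (23), Trpm6 in WT (23), Trpm6 in R (12) and Trpv5 in Q (11) held less often. Without male Q replicate 4 the estimates in Q were 0.32 for Trpv5 (edgeR adjusted p = 0.0919) and 0.31 for Klhl3 (adjusted p = 0.0762). Without the 2 libraries of low mitochondrial share the counts were 7 in Q, 8 in R and 6 in WT. Pvalb and Wnk1 (0.29, edgeR adjusted p = 0.0329) were then added in Q and Stk39 (0.32, adjusted p = 0.0497) in R. Slc12a3 (0.35, edgeR adjusted p = 0.0192), Trpv5 (0.28, adjusted p = 0.0309) and Wnk1 (0.30, adjusted p = 0.015) were added in WT. Without all 3 libraries that stood apart the counts were 7, 7 and 3. Scaling by library totals alone, chosen after seeing the data, moved the median of all genes from 0.04 to 0.20 and the split of calls from 3747 higher and 3324 lower to 7063 and 1735. The member estimates were then 0.32 to 0.73, all 10 called as higher.

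Other genes of the same transport, from 4 lists of 50 genes in all, were read in the same comparison, and 22 rose and 9 fell with female sex. The median log2 fold change of the 50 was 0.20, against 0.04 over all tested genes. Among the regulators of WNK kinases and the cotransporter, 3 of 15 rose and 4 fell, shares near those of all tested genes (21.3% and 18.9%), so this count is no result about the list. The aldosterone-induced kinase Sgk1 (0.63), the mineralocorticoid receptor Nr3c2 (0.51) and Hsd11b2 (0.37), which shields that receptor from glucocorticoids, rose by these log2 fold changes. The rise of Sgk1 was uneven, with 108 ± 51.2 CPM in female Q and 48.1 ± 14.1 CPM in male Q (SD). It had 60.3 ± 12.1 CPM in female R and 56.4 ± 9.82 CPM in male R. In WT it had 72.9 ± 17.9 CPM in females and 46.9 ± 17.8 CPM in males. The cullin Cul3, which works with KLHL3, fell by 0.28, its relative Klhl2 by 0.39, the kinase Wnk2 by 0.48 and the phosphatase subunit Ppp1ca by 0.19 on the log2 scale. Oxsr1, the kinase most like SPAK, did not pass, with an estimate of 0.03. Klhl3 and its partner Cul3 thus had estimates of opposite sign.

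Of 10 basolateral salt genes 4 rose and 2 fell, again beside 21.3% and 18.9% of all tested genes. Barttin (Bsnd, 0.33) and the potassium channel Kcnj10 (0.35) were among those that rose. The sodium pump subunit Fxyd2 fell by 0.29 on the log2 scale. Its male Q mean of 3071 ± 1504 CPM (SD) held a library at 5755 CPM, beside a group median of 2469 CPM. Female Q averaged 2152 CPM. Means of females and males were 2240 and 2671.5 CPM in R, and 2337 and 2535 CPM in WT. The pump subunit Atp1b1 did not pass, at 0.11. Of 15 calcium and magnesium genes 7 rose and 3 fell. Those that rose were the calcium pumps Atp2b1 (0.20) and Atp2b4 (0.39), the magnesium-related Cnnm4 (0.62) and Slc41a3 (0.53), Egf (0.61), a growth factor that stimulates TRPM6, the calcium-sensing receptor Casr (0.52) and the kallikrein Klk1 (0.29). The receptors for vitamin D (Vdr), epidermal growth factor (Egfr) and parathyroid hormone (Pth1r) fell, by 0.24, 0.37 and 0.42. The ligand Egf and its receptor had opposite signs, and these receptors are also made in other segments.

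Genes listed for the identity of the segment, some of them also made in other segments, moved one way. The list was chosen with earlier results of these data known. Of 10, 8 rose and 0 fell, with a median of 0.45, beside the same 21.3% and 18.9% of all tested genes and their median of 0.04. They were the receptor Erbb4 (0.73), the transcription factors Prox1 (0.63), Sall3 (0.51), Tfap2b (0.41) and Tfap2a (0.38), the transporter Slc16a7 (0.62), the potassium channel Kcnj1 (0.48) and Tmem52b (0.42). Emx1 and Pgam2 did not pass, at 0.14 and 0.17. All values for these lists are means over the 3 genotypes tested with edgeR, and the largest adjusted p among the 31 calls was 0.0408, for Casr. CPM are relative to library size. In bulk tissue, more cells of the segment, more RNA per cell and less RNA of other segments cannot be told apart.

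Markers of other nephron parts moved in the same comparison, in which 21.3% of all tested genes rose and 18.9% fell. Of 6 thick ascending limb markers 5 rose and 1 fell, and they summed to 4278 to 5926 CPM in females, against 2709 to 4549 CPM in males. All 6 intercalated cell markers rose, with sums of 262 to 404 CPM in females and 199.6 to 273 CPM in males. All 5 podocyte markers rose, with sums of 268 to 378 CPM in females and 201 to 308 CPM in males. Of 6 connecting tubule and principal cell markers, of which 5 could be tested, 3 rose, and Aqp2 did not pass at 0.04. Of 6 proximal tubule markers 3 fell and 1 rose, with sums of 10408.5 to 14450 CPM in females and 14517 to 16579.8 CPM in males. Of 6 endothelial markers 2 rose, and their sums were 423 to 549.8 CPM in females and 348 to 453 CPM in males. No nephron or endothelial list had a gene at 0 in a whole group, and the part of these markers in the members' difference was not tested.

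**Figure D3:**
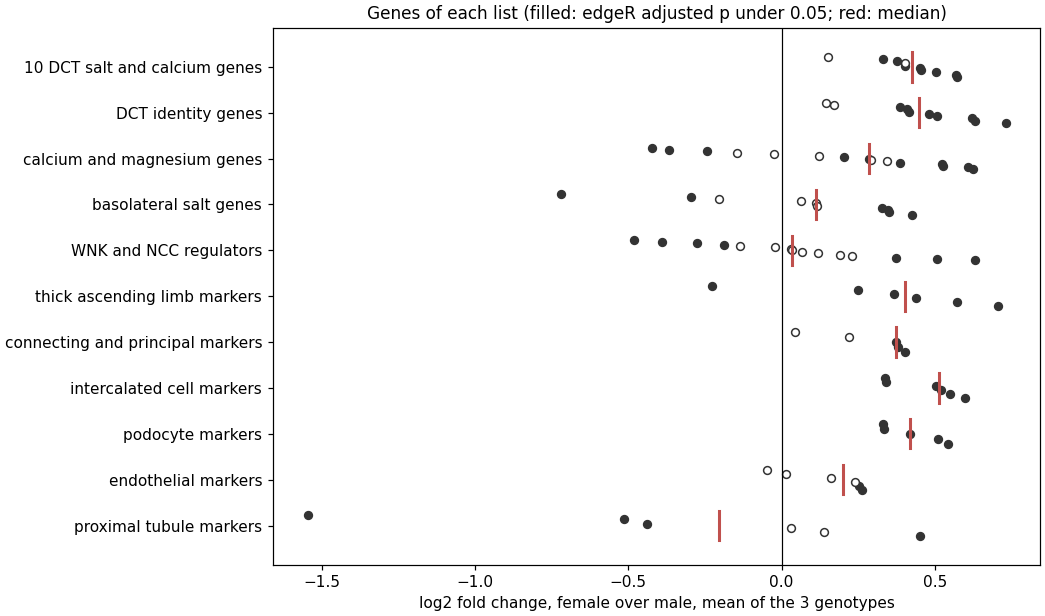
Log2 fold change of female over male kidneys, mean of the 3 genotypes (x axis), for each tested gene of the members, the 4 pathway lists and 6 marker lists (y axis), with filled points where the edgeR adjusted p was under 0.05 and red lines for medians. The members (median 0.43) and segment identity genes (0.45) lie right of 0, as do intercalated and podocyte markers, while proximal markers lie on both sides.

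The study set mimetics of Aqp3 acetylation against WT, and in that comparison none of the transport genes passed. In each of the 9 genotype comparisons edgeR called 0 of the 10 members, beside 0% of all tested genes. At an unadjusted p under 0.05 the count of members was 1 in male R against male WT, 1 in Q against R over both sexes and 0 in the other 7. Over all genes that count was 516 (2.94%) in female Q against WT and 338 (1.92%) in female R against WT. It was 897 (5.1%) in male Q against WT and 375 (2.13%) in male R against WT. The share of all genes in Q against R was 3.93% over both sexes, 4.1% in males and 3.03% in females. Over both sexes it was 4.72% in Q against WT and 1.34% in R against WT. DESeq2 and voom called 0 members in the 9 comparisons, and of all genes at most 3 and 2. Comparisons of Q and of R with WT share the WT libraries.

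The intervals of these estimates differed in width between genes. For Slc12a3 the log2 fold change was -0.10 (95% interval -0.40 to 0.19) in female Q and 0.12 (-0.21 to 0.46) in female R against female WT. In males it was -0.19 (-0.49 to 0.10) in Q and -0.20 (-0.50 to 0.09) in R against WT. For Klhl3 the intervals were -0.33 to 0.19 in female Q, -0.28 to 0.32 in female R, -0.23 to 0.30 for male Q, and -0.27 to 0.25 for male R. Stk39 had intervals of -0.18 to 0.27, -0.19 to 0.32, -0.32 to 0.12 and -0.24 to 0.21 in the same order of groups. None of these intervals of Slc12a3, Klhl3 and Stk39 held a doubling, which is 1 on this scale. Those of Trpv5 and Pvalb were wider. Trpv5 had -0.77 to 0.01 for male Q, and -0.76 to 0.01 for male R, against WT. Pvalb had -0.19 to 0.93 for female Q, and -0.28 to 0.86 for male Q, against WT, and in female Q against female R its interval of -0.12 to 1.2 held a doubling.

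In male R kidneys, 2 calcium genes had low values without passing the test. Slc8a1, at 61.5 to 81.8 CPM in male R and 76.0 to 106 CPM in male WT, had a log2 fold change of -0.30 (SE 0.111, unadjusted p = 0.0107, edgeR adjusted p = 1). Trpv5 had 9.11 to 11.1 CPM in male R and 12.7 to 14.5 CPM in male WT, ranges that do not overlap, and 0.302% of all tested genes were likewise lower without overlap. Its log2 fold change was -0.37 (SE 0.188, unadjusted p = 0.0575, edgeR adjusted p = 1). In females the estimates were positive, at 0.11 for Slc8a1, where R lay above WT without overlap (1.89% of all genes did), and 0.25 for Trpv5. The difference between the sexes in this response was 0.42 for Slc8a1 (SE 0.169) and 0.62 for Trpv5 (SE 0.282), with an edgeR adjusted p of 0.992 for both. Over the 10 members, 10 estimates were negative in male R against WT (median -0.11) and 7 positive in female R against WT (median 0.06). The members share libraries and several vary together, so these signs are not independent. They are not set beside the signs of all genes and were not tested.

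In Q kidneys single libraries set the larger estimates. Trpv5 in male Q against WT had a log2 fold change of -0.38, which was -0.18 without male Q replicate 4, a library with 4.16 CPM against 10.7 to 13.5 CPM in the other male Q libraries. Pvalb had 0.29 in the same comparison and -0.14 without that library. In female Q against WT Pvalb had 0.37, and 0.17 without female Q replicate 5. Q against R over both sexes gave Pvalb 0.46 (SE 0.212, unadjusted p = 0.0378, edgeR adjusted p = 0.986), which was 0.14 without both libraries. Trpm6 had -0.30 in female Q against WT and -0.14 without female WT replicate 2.

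Of the 50 related genes 0 passed in a genotype comparison. The smallest unadjusted p in male Q against WT belonged to Slc16a7, a monocarboxylate transporter of the segment (-0.29, SE 0.106), and to the parathyroid hormone receptor Pth1r (0.27, SE 0.123). In male R against WT they belonged to Slc16a7 (-0.19, SE 0.106) and the calcium pump Atp2b1 (-0.15, SE 0.0929). In female Q against WT they belonged to the calcium channel Trpv6 (-0.53, SE 0.239) and Hsd11b2 (0.19, SE 0.0921), and in female R against WT to Ppp3cb, a calcineurin subunit (0.23, SE 0.129), and Trpv6 (-0.48, SE 0.279). The edgeR adjusted p was 0.917 or more for each.

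**Figure D4:**
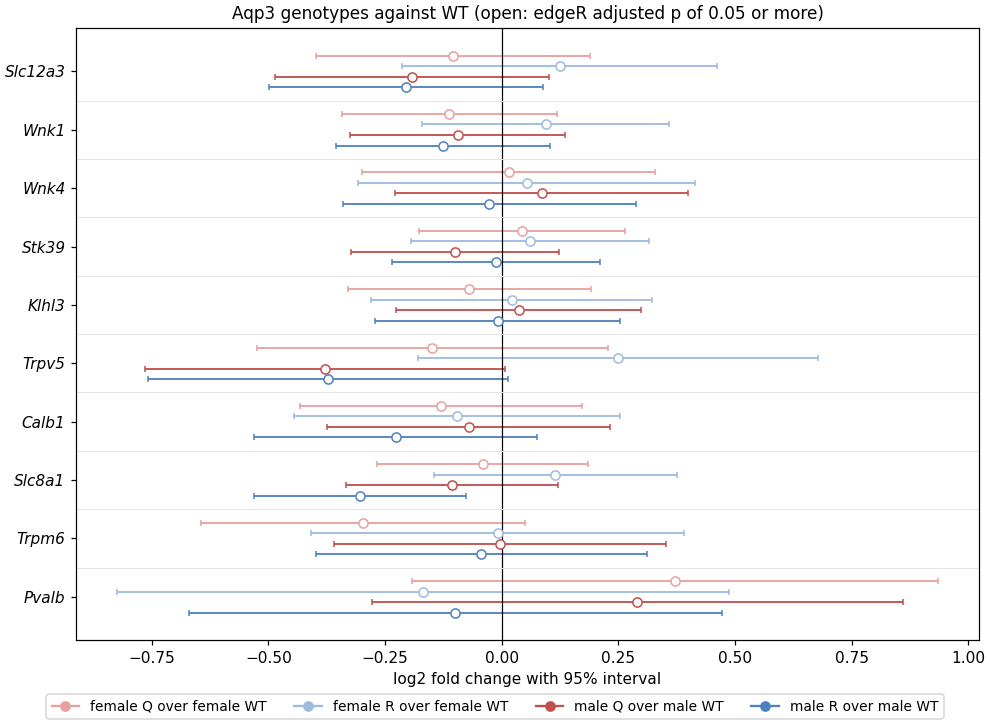
Log2 fold change against WT of the same sex (x axis) with its 95% interval for the 10 genes (y axis), for Q and R in females and in males. All points are open, since 0 had an edgeR adjusted p under 0.05, and Trpv5 in male Q (-0.38) and male R (-0.37) lies farthest below 0.

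Within groups the members did not vary as 1 block. Deviations of log2 CPM from the group mean were correlated with those of Slc12a3 over the 28 libraries, 9 relations in all, with 100000 permutations each. The permutations ran freely over libraries and did not allow for the removed group means, so their p-values are too small. Klhl3 followed Slc12a3 most closely (Pearson r = 0.86, Spearman rho = 0.88, permutation adjusted p = 4.5e-05 and 9e-05). Wnk1 had r = 0.82 and rho = 0.74 (permutation adjusted p = 4.5e-05 and 9e-05), and Trpm6 had r = 0.72 and rho = 0.55 (0.00012 and 0.00664). The raw permutation p of r was 1e-05 for Klhl3 and Wnk1, the smallest that these permutations can give. Without the 2 libraries farthest from the median of Slc12a3, female Q replicates 4 and 5, r was 0.81 for Klhl3, 0.75 for Wnk1 and 0.57 for Trpm6.

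The other relations were weaker or rested on those libraries. Trpv5 had r = 0.57 and rho = 0.61 (permutation adjusted p = 0.00776 and 0.00204), Slc8a1 r = 0.53 and rho = 0.40 (0.00776 and 0.053), and Wnk4 r = 0.41 and rho = 0.26 (0.0414 and 0.229). Without the 2 farthest libraries r was 0.38, 0.26 and 0.19 for these genes, and the relations no longer passed. Pvalb went the other way, with r = -0.40 and rho = -0.46 (permutation adjusted p = 0.0461 and 0.0277), and r was -0.23 without the 2 farthest libraries. The permutation adjusted p of r for Wnk4 and for Pvalb lay so near 0.05 that neither call is secure. Without the 2 libraries of low mitochondrial share r was -0.19 for Pvalb (permutation adjusted p = 0.442) and 0.42 for Slc8a1 (permutation adjusted p = 0.0548), and neither passed. Stk39 (r = 0.12, rho = 0.21, adjusted p = 0.61 and 0.329) and Calb1 (r = 0.10, rho = 0.01, adjusted p = 0.619 and 0.944) did not follow Slc12a3. The 2 highly expressed products, the cotransporter and calbindin, thus varied without a detectable link. All points share tissue sampling, depth and scaling, and the cortex content of a library was not measured.

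**Figure D5:**
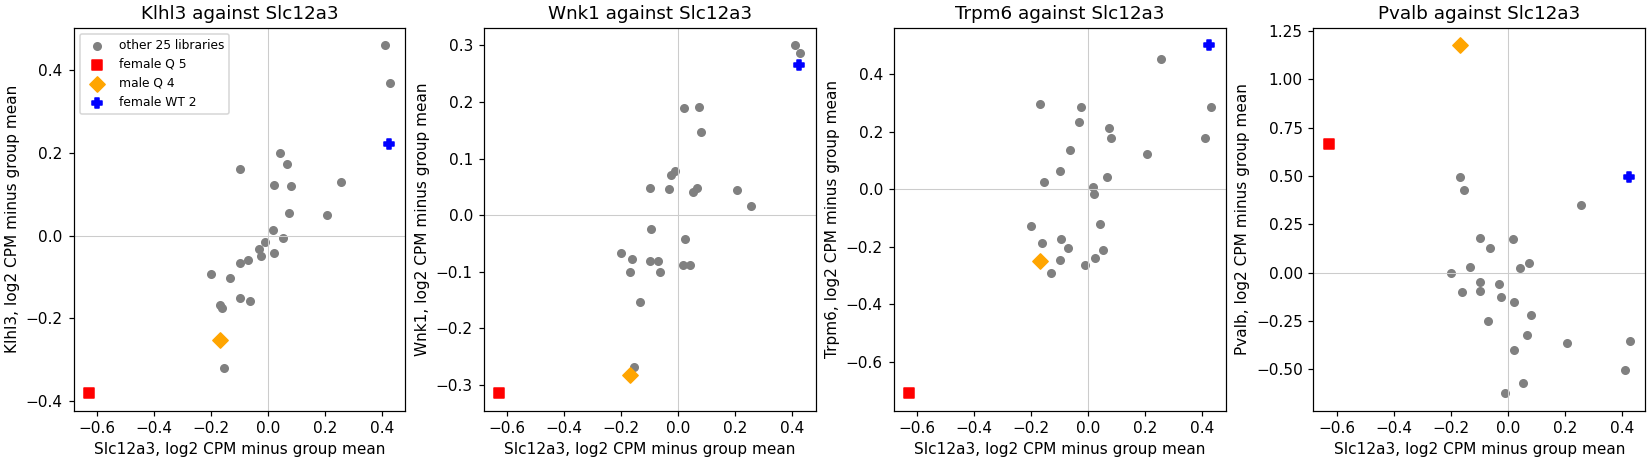
Deviation of log2 CPM from the group mean of Klhl3, Wnk1, Trpm6 and Pvalb (y axes) against that of Slc12a3 (x axes) in 28 libraries, with the 3 libraries that stood apart marked. Klhl3 and Wnk1 climb with Slc12a3 (r = 0.86 and 0.82), while for Pvalb r is -0.40 and male Q replicate 4 is the highest point.

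The genes outside the 10 whose deviations were most like the mean standardised deviation of the members were named by Spearman's rho over the 28 libraries. They were Kalrn (rho = 0.81), Slc16a7 (0.78), Kcnj1 (0.77), Aqp6 (0.77), Gm16010 (0.75) and B4galnt1 (0.74), chosen as the 6 highest of all tested genes and so given without a test. Slc16a7 and Kcnj1 are also on the list of segment identity genes. Aqp6 is known as an aquaporin of intercalated cells.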

How the data were processed

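Whole-kidney polyadenylated RNA was measured in 28 libraries. The authors deposited raw counts of fragments per gene, which per the file headers came from featureCounts 2.0.1 with Ensembl 107 gene models for GRCm39 and no strand option. Reads of a gene and an overlapping antisense gene can therefore not be told apart. Trim Galore 0.6.7, SAMtools 1.6 and DESeq2 1.38.3 are listed in the submitters' processing notes, with no aligner named in the sources used here.

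The analysis used edgeR 4.0.16 in R 4.3.3. The steps were filterByExpr (17573 genes with 99.91% of counts), TMM scaling, 1 mean per group, 22 residual degrees of freedom and the robust quasi-likelihood test. A call is a p under 0.05 after Benjamini-Hochberg adjustment across the tested genes, for 9 genotype comparisons, 4 of sex and 2 interactions. Levels are TMM-scaled CPM. The SE is the absolute log2 fold change over the square root of F. Correlations used log2 CPM with a prior count of 2. On simulated counts, a log2 change of 0.5 was called for 36% of changed genes in male R against male WT and for 66.3% in the mean sex comparison. In that second simulation 98 genes had this change and 97 a log2 change of 1. In the real sex comparison 40.2% of all tested genes passed, so 66.3% is not its own rate of recovery. The first simulation had 100 genes with a log2 change of 0.5 and 98 with a log2 change of 1. The real comparison of male R with male WT called 0 genes, so 36% is not its own rate of recovery either. Comparisons of female R with female WT were not simulated.

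The members, lists and tests were chosen with earlier results of these data known. Named genes are all members, every called gene of the 4 related lists, otherwise the 2 of smallest p per comparison, Aqp3 and the 6 genes most like the members. Some genes of the related lists enter the counts and are not reported here by name. Replicate numbers did not pair libraries. Alternatives were DESeq2 1.42.0 size factors and its Wald test, no filter, a replicate block, voom with quality weights (limma 3.58.1), leaving out each library or both of low mitochondrial share, and, added after seeing the data, library totals alone and leaving out all 3 libraries that stood apart. Exon lengths came from GENCODE release 21 on GRCm38 by gene identifier.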

Additional observations from a re-analysis of the deposited data

Results flagged for a closer look

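Among the 10 genes, each group of 5 libraries was searched for a library far from the rest, by the gap to its nearest neighbour relative to the range of the group. Of 50 combinations of gene and group 7 were flagged, and chance flags about 1 in 20. Their causes were not tested.

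Female WT replicate 2, the library with little Xist, was high for 3 genes. It had 1283 CPM of Slc12a3 against 855 to 909 CPM in the other female WT libraries, 388 CPM of Wnk1 against 305 to 318 CPM, and 56.9 CPM of Pvalb against 34.0 to 39.1 CPM. All 10 members lay above their group mean in this library.

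Male Q replicate 4 had 77.9 CPM of Pvalb against 23.2 to 33.1 CPM in the other male Q libraries, and 201 CPM of Wnk1 against 251 to 271 CPM. Female Q replicate 5 had 8.66 CPM of Trpv5 against 15.6 to 18.1 CPM in the other female Q libraries. Both have the low mitochondrial share. Female Q replicate 2 had 817 CPM of Calb1 against 456 to 534 CPM in the other female Q libraries.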

How the results depend on the processing

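The mean difference between the sexes called 8 members with DESeq2 size factors and with no filter, 9 with DESeq2 and without the 3 libraries that stood apart, and 10 with voom, with library totals alone and without the 2 libraries of low mitochondrial share. Leaving out single libraries gave 8 to 9. With a replicate block it called 9, Pvalb being added (0.47, adjusted p = 0.0312), and genotype comparisons called 0 members. The block ended the calls of Trpv5 in Q (adjusted p = 0.0511) and of Trpm6 (0.0531) and Calb1 (0.0834) in R, no filter those of Trpv5 in Q (0.0639) and Calb1 in R (0.0813), and DESeq2 size factors that of Trpm6 in R (0.0519). Only 3 of 39 same-numbered pairs of libraries had correlated deviations over 0.1 (range -0.29 to 0.19). In female against male WT 3 members were called, but 6 without the 2 libraries of low mitochondrial share, 7 with voom, 7 with library totals alone and 2 to 5 without single libraries, with 5 without male WT replicate 2 or female Q replicate 5. In Q 5 became 8 with library totals alone and 2 to 6 without single libraries, with 2 without female Q replicate 1 or 4 and 3 without male Q replicate 5 or female Q replicate 2. In R 7 became 4 without male R replicate 3 or female R replicate 3, the range being 4 to 7. Of the 9 correlations with Slc12a3, 7 passed, and 3 without the 2 farthest libraries, by permutations that did not allow for the removed group means. Genotype comparisons and interactions called 0 members under every alternative run. Over all genes, female against male R called 2474, but 4972 with voom, 4171 without the 2 libraries of low mitochondrial share and 1608 or 1613 without female R replicate 1 or 2, and female against male WT called 2906, but 4623 with voom. The causes were not tested.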
